A study of Mus musculus with 48 samples.

Results

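The 35 genes described here encode the chaperones of the endoplasmic reticulum (ER) and the unfolded protein response of the mouse. They were chosen by name. Each symbol was matched to its Ensembl row through the gene table of the single-cell data, and all 35 were found among the 52636 genes of the count table of invariant natural killer T (iNKT) cells and among the 35661 genes of the count table of donor T cells. They were ordered by role: 9 chaperones and co-chaperones, 6 lectin chaperones and disulfide isomerases, 5 stress sensors and transcription factors, 9 genes of ER degradation and of the translocon, and 6 genes of the ATF4 and CHOP branch.

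Proteins that enter the ER are folded there by chaperones led by BiP, the product of Hspa5, and by enzymes that form disulfide bonds. When unfolded protein builds up, the membrane sensors IRE1 (Ern1), PERK (Eif2ak3) and ATF6 (Atf6) raise chaperone and degradation genes, through spliced XBP1 and cleaved ATF6, and slow translation while ATF4 is made, which acts on amino acid and stress genes such as Asns, Atf3 and Ddit3. Activated T cells that secrete cytokines and granules enlarge this folding capacity, and amino acid shortage or other stress can turn on the ATF4 branch without ER stress.

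All cells were from FVB/N mice. Thymic iNKT17, iNKT2 and iNKT1 cells, the sublineages of T cells with a nearly invariant receptor for glycolipids, were sorted and had 2 RNA libraries and 2 ATAC libraries each; ATAC-seq counts DNA fragments released from open chromatin by a transposase. Donor conventional CD8 and CD4 T cells from spleen and peripheral lymph nodes were sequenced as RNA in 5 groups of 3 libraries per cell type. These were day 7 after transplantation into Balb/C hosts, a major mismatch model of graft-versus-host disease, with iNKT17, iNKT2 or iNKT1 cells given or with no treatment, and day 0, before transplantation. Day 7 cells differ from day 0 cells in time, host and passage through a transplant at once, and these cannot be told apart. Total thymic iNKT cells of 2 mice aged 8 weeks, 1 thymus per library, were also profiled as single cells.

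Total counts were 26811373 to 33688697 per iNKT RNA library, 26134241 to 33658426 per CD8 library, 25323879 to 37055182 per CD4 library and 13299586 to 42964216 per ATAC library. The 4 markers of iNKT1 cells summed to 281 to 307 CPM (counts scaled to libraries of equal size) in iNKT17, 163 to 183 CPM in iNKT2 and 2554 to 2576 CPM in iNKT1 libraries. The 4 markers of iNKT2 cells summed to 1975 to 2205 CPM in iNKT17, 1745 to 2333 CPM in iNKT2 and 142 to 209 CPM in iNKT1 libraries, so this list set iNKT1 cells apart but did not separate iNKT17 from iNKT2 cells. Il23r, the interleukin-23 receptor of cells that make IL-17, had 538 to 633 CPM in iNKT17, 0.145 to 0.203 CPM in iNKT2 and 0.0599 to 0.164 CPM in iNKT1 libraries. At day 0 the donor T cell libraries also held RNA of other cells. The 10 B and plasma cell markers summed to 262 to 438 CPM at day 7 and to 1070 to 2081 CPM at day 0 in CD8 libraries, and to 249 to 498 CPM at day 7 and 1657 to 2601 CPM at day 0 in CD4 libraries, and the 6 erythroid markers to 0.708 to 12.2 CPM at day 7 without treatment and 570.0 to 751 CPM at day 0 in CD8 libraries, and to 2.93 to 9.05 CPM and 3119.9 to 9335 CPM in CD4 libraries. The 10 myeloid markers measured summed to 143 to 289 CPM at day 7 without treatment and 811 to 2506 CPM at day 0 in CD8 libraries, and to 144 to 163 CPM and 1033 to 1124 CPM in CD4 libraries. With iNKT17, iNKT2 and iNKT1 cells given, these markers summed to 125 to 215, 264 to 382 and 173 to 222 CPM in CD8 libraries. The CD4 sums were 137 to 358, 231 to 444 and 238 to 635 CPM in the same order. The part of this difference in the treatment comparisons of the 35 genes was not tested. Plasma cells are rich in ER chaperones, and the part of these cells in the day 0 levels of the 35 genes was not tested. In such bulk samples fewer cells of a type and less RNA per cell cannot be told apart.

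Some CD4 libraries stood apart in the chaperone genes themselves. Across the 15 CD4 libraries the second principal component of all genes tested held 17.5% of the variance, and 5 libraries lay on its smaller side: day 0 replicate 3, untreated replicate 3, iNKT2 replicates 1 and 3 and iNKT17 replicate 3. Of these 5, 4 carry the number 3. The sample titles name 2 experiments, which the columns of the count table do not carry, so whether the number marks an experiment is not given in the sources used here. Hyou1, an ER chaperone of the HSP70 family, had 2.47 to 9.96 CPM in these 5 libraries and 17.18 to 31.7 CPM in the other 10. Hspa5 had 1261 to 1683 CPM in the 4 day 7 libraries of that side and 809.6 to 1118 CPM in the other day 7 libraries, and 7 members were in this way higher in all 4 of them (Hspa5, Dnajb11, Sdf2l1, Pdia6, Xbp1, Herpud1 and Derl2) while 3 were lower (Hyou1, Canx and Ern1), where 7.19% of all genes were higher and 8.63% lower. In CD8 cells the second component held 5.27% of the variance with 6 libraries on the smaller side (day 0 replicate 2, untreated replicate 1, iNKT2 replicates 1 and 3, iNKT17 replicates 2 and 3), and 1 member, Pdia6, was higher in all of its day 7 libraries and 3 (Canx, Ern1 and Atf6) lower, where 2.78% of all genes were higher and 3.61% lower. What sets these libraries apart was not tested, and results are given with all libraries and, where they differ, without those of the smaller side. That setting was chosen after the data were seen, by a score from these same counts, so calls it adds are no further support.

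**Figure D1:**
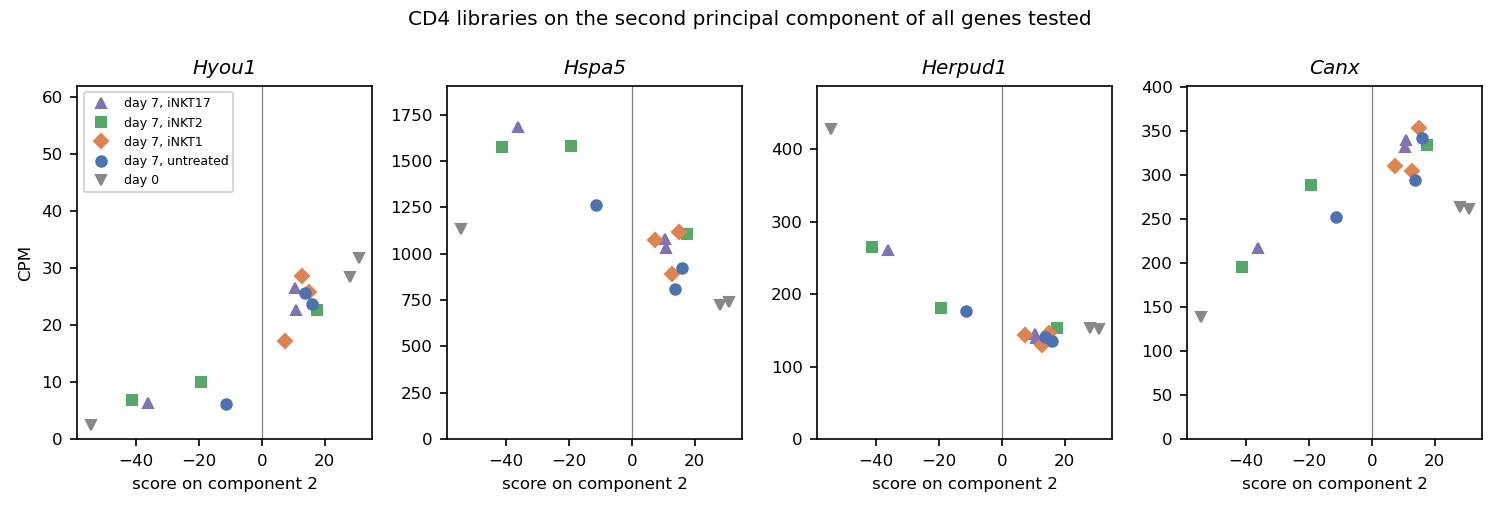
Level in CPM (vertical axes, from 0) of 4 genes in each of the 15 CD4 libraries against the library's score on the second principal component (horizontal axes, no unit); symbols mark the group. The 5 libraries left of 0, from 4 of the 5 groups, had the lowest Hyou1 levels (2.47 to 9.96 CPM) and, among day 7 libraries, the highest Hspa5 and Herpud1 and the lowest Canx levels.

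The promoters of several members carry the elements through which this response acts. Some of them, not all, are shown, from members that rose, fell or did not pass the test in the results that follow. RefSeq start windows (250 bases before to 50 after the start, build GRCm38.p6) were held for 30 of the 35 genes, and not for Hyou1, Manf, Atf6, Derl1 and Sec61a1. The ER stress element, the letters CCAAT and CCACG with 9 bases of any kind between them, searched on both strands as were the other elements, lay in the windows of 9 of these 30 genes (Hspa5, Hsp90b1, Dnajc3, Creld2, Calr, Canx, Pdia6, Syvn1 and Derl3) and in 39 of all 32851 windows (0.119%). ERSE-II, the letters ATTGG and CCACG with 1 base between them, lay in those of Herpud1 and Dnajb11 and in 12 of all windows (0.0365%). The ATF4 element TGATGNAA lay in those of Asns, Atf3, Trib3, Chac1 and Herpud1, and in 3.97% of all windows. The UPRE letters TGACGTGG were in 0 of the 30 windows and in 0.676% of all windows. Herpud1 held both an ERSE-II and an ATF4 element, which do not overlap. In the stretches that follow, written 5′ to 3′ on the strand of the gene with positions counted from its start, capitals mark the fixed letters of the elements. An element on the other strand reads as its reverse complement (CGTGG before ATTGG, or TT before CATCA).
Hspa5, chr2:34772010-34772058, + strand, -80 to -32: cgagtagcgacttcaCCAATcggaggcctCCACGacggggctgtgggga
Hsp90b1, chr10:86705518-86705671, - strand, -227 to -74: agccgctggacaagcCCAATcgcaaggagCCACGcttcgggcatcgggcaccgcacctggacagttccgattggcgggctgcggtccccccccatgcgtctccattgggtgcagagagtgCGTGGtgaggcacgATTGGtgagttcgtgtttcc
Dnajc3, chr14:118937812-118937860, + strand, -120 to -72: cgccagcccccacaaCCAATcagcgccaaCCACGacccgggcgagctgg
Creld2, chr15:88819505-88819553, + strand, -141 to -93: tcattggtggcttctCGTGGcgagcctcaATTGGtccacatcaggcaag
Pdia6, chr12:17266476-17266524, + strand, -113 to -65: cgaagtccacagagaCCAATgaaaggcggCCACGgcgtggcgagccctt
Derl3, chr10:75893227-75893275, + strand, -171 to -123: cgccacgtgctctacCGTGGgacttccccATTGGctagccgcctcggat
Herpud1, chr8:94386307-94386397, + strand, -122 to -32: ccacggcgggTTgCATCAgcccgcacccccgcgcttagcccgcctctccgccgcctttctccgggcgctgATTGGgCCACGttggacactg
Atf3, chr1:191183421-191183458, - strand, -125 to -88: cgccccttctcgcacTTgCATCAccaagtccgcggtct
Asns, chr6:7693210-7693247, - strand, -38 to -1: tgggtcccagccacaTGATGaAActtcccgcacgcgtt

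The first question was how donor T cells 7 days after transplantation without iNKT cells differed from the cells before transplantation. In CD8 cells 16 of the 34 members tested rose and 7 fell, where 30.9% of all genes tested rose and 29.8% fell (edgeR's quasi-likelihood test on counts, Benjamini-Hochberg adjusted p under 0.05 over all genes tested). In CD4 cells 8 of 34 rose and 4 fell, where 17.4% of all genes rose and 18.2% fell. The shares of members called, in either direction, thus lay beside 60.7% of all genes in CD8 cells and 35.6% in CD4 cells. Chac1, an enzyme that degrades glutathione, was too low to test, with at most 0.394 CPM in any of the 30 libraries. The median log2 fold change over the members was 0.43 in CD8 and 0.08 in CD4 cells, against -0.05 and -0.08 over all genes tested. The same direction held in both cell types for Hsp90b1, P4hb, Ern1, Atf6, Sel1l, Sec61a1 and Asns, which rose, and for Dnajb9, Ddit3, Ppp1r15a and Atf3, which fell.

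**Figure D2:**
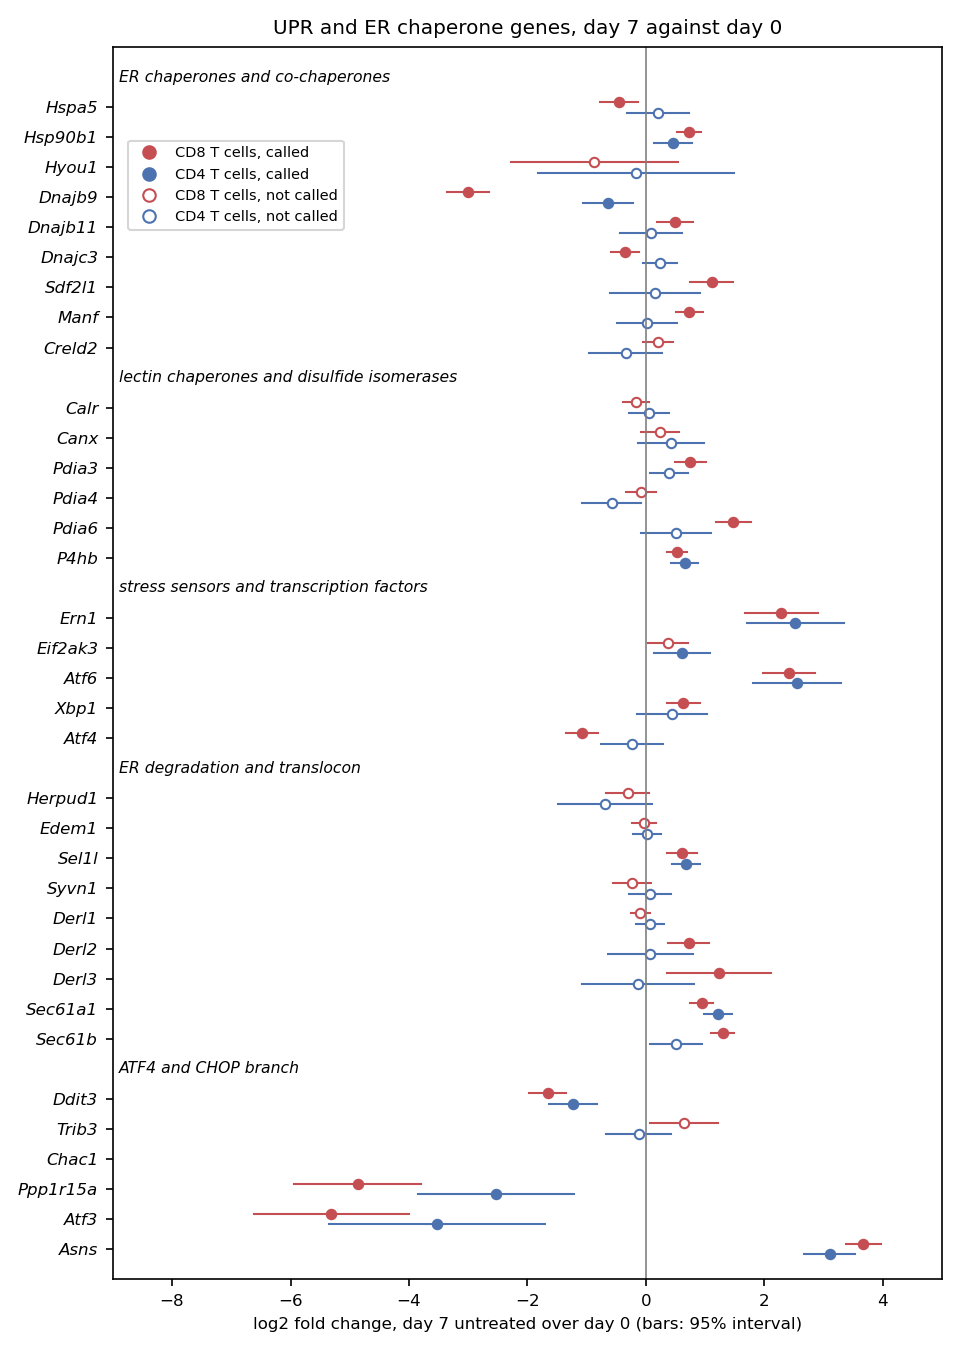
Log2 fold change of each member, day 7 untreated over day 0 (horizontal axis), in CD8 and CD4 T cells, 3 libraries per group, ordered by role; bars are 95% intervals and filled points passed the test. Sensors, translocon genes and Asns lie to the right of 0, while Dnajb9, Ddit3, Ppp1r15a and Atf3 lie to its left; Chac1 was not tested.

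Among the chaperones and co-chaperones the members split. In CD8 cells 4 of 9 rose (Hsp90b1, Dnajb11, Sdf2l1 and Manf) and 3 fell (Hspa5, Dnajb9 and Dnajc3), and in CD4 cells Hsp90b1 rose and Dnajb9 fell. Dnajb9 (ENSMUSG00000014905), the co-chaperone ERdj4 that binds the IRE1 sensor, had 9.56, 10.2 and 10.1 CPM in the day 7 CD8 libraries, against 78.0, 85.0 and 76.2 CPM in the day 0 CD8 libraries. The 3 day 7 values lay within 1 CPM of each other and far below every day 0 value. The log2 fold change was -3.00 (SE 0.17, adjusted p = 8.59e-10 by edgeR's quasi-likelihood test). In CD4 cells it had 13.5, 13.1 and 15.6 CPM at day 7, against 23.3, 25.1 and 17.3 CPM at day 0, a log2 change of -0.64 (SE 0.20, adjusted p = 0.0216). The CD4 groups lay next to each other without overlap, and this call was lost in 5 of the other settings run (highest adjusted p 0.0837).

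Hspa5 (ENSMUSG00000026864), which encodes BiP, had 963, 700.2 and 948 CPM at day 7 in CD8 cells, against 1182, 1358 and 1031 CPM at day 0. Every day 7 library lay below every day 0 library, and the log2 change was -0.45 (SE 0.15, adjusted p = 0.0167). This call was lost without day 0 replicate 2, without untreated replicate 2, without the libraries of the smaller side and in the fit of all 30 donor T cell libraries (highest adjusted p 0.0917). In CD4 cells the groups overlapped, with 809.6, 921 and 1261 CPM at day 7, against 725, 737 and 1136 CPM at day 0. The highest value of each group was in the library of the smaller side of the second component.

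Hsp90b1, the ER paralog of HSP90, had 555, 581 and 528 CPM at day 7, against 331, 324 and 348 CPM at day 0 in CD8 cells, a log2 change of 0.73 (SE 0.10, adjusted p = 1.29e-05). The CD4 libraries had 384, 466 and 419.8 CPM, against 329, 329 and 262 CPM, a log2 change of 0.47 (SE 0.15, adjusted p = 0.0260). The day 7 libraries were higher in both cell types, but in CD4 cells the call was lost in 4 settings (highest adjusted p 0.105). Sdf2l1, which works with ER J-domain co-chaperones, had 150.2, 124 and 125 CPM at day 7, against 59.3, 73.5 and 52.3 CPM at day 0 in CD8 cells, a log2 change of 1.11 (SE 0.17, adjusted p = 4.79e-05). Manf, a secreted ER stress factor, rose by 0.74 and Dnajb11, the BiP co-chaperone ERdj3, by 0.49 on the log2 scale in CD8 cells, while Dnajc3, the co-chaperone P58IPK, fell by 0.36. The Dnajc3 call was lost without day 0 replicate 2 and without the libraries of the smaller side (highest adjusted p 0.0754). Creld2, an ER stress-responsive disulfide isomerase-like protein, had 63.3, 66.8 and 67.8 CPM at day 7 and 57.6, 62.5 and 51.6 CPM at day 0 in CD8 cells and did not pass the test.

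Among the lectin chaperones and disulfide isomerases 3 of 6 rose in CD8 cells (Pdia3, Pdia6 and P4hb), 1 of 6 rose in CD4 cells (P4hb) and none fell in either (at an unadjusted p under 0.05, 3 and 3 members passed, where 64.8% and 44.4% of all genes did). Pdia6, a disulfide isomerase that also binds the sensors, had 575, 464 and 466 CPM at day 7, against 169, 203 and 169.8 CPM at day 0 in CD8 cells. The lowest day 7 library thus exceeded the highest day 0 library by a wide margin, with a log2 change of 1.47 (SE 0.14, adjusted p = 2.96e-07). In CD4 cells the groups overlapped, at 286, 341 and 395 CPM at day 7, against 181, 169.7 and 370.1 CPM at day 0, where the day 0 library of the smaller side had the high value. P4hb, the classical protein disulfide isomerase, had 397, 422 and 452 CPM at day 7, against 271, 269 and 267 CPM at day 0 in CD4 cells, a log2 change of 0.66 (SE 0.11, adjusted p = 0.000252). In CD8 cells P4hb rose by 0.53 and Pdia3, the isomerase that works with the lectin chaperones, by 0.75 on the log2 scale. Calr and Canx, the lectin chaperones calreticulin and calnexin, did not pass the test, with log2 fold changes of -0.16 and 0.24 in CD8 cells and 0.06 and 0.42 in CD4 cells.

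Of the 3 sensors, Ern1 and Atf6 rose in both cell types and Eif2ak3 in CD4 cells. Atf6 (ENSMUSG00000026663) had 54.5, 75.6 and 65.2 CPM at day 7, against 13.0, 11.8 and 11.6 CPM at day 0 in CD8 cells. CD4 libraries of Atf6 had 88.3, 98.0 and 62.8 CPM, against 17.9, 15.2 and 9.35 CPM. No day 7 library overlapped a day 0 library, and the log2 changes were 2.42 (SE 0.21, adjusted p = 1.17e-07) in CD8 and 2.55 (SE 0.34, adjusted p = 5.63e-05) in CD4 cells.

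Ern1 (ENSMUSG00000020715), the kinase and RNase IRE1, had 14.5, 22.4 and 23.6 CPM at day 7, against 4.39, 4.10 and 3.87 CPM at day 0 in CD8 cells. The CD4 values were 39.6, 38.1 and 28.2 CPM, against 7.65, 7.93 and 2.74 CPM. The log2 changes were 2.29 (SE 0.29, adjusted p = 6.68e-06) and 2.53 (SE 0.38, adjusted p = 0.000142), again with no overlap. Eif2ak3, the kinase PERK, had 57.2, 60.7 and 43.6 CPM at day 7, against 38.3, 43.1 and 23.8 CPM at day 0 in CD4 cells, a log2 change of 0.62 (SE 0.22, adjusted p = 0.0421) that was lost in 6 settings. In CD8 cells its log2 fold change of 0.37 did not pass (adjusted p = 0.0549).

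Xbp1 and Atf4, the transcription factors of the IRE1 and PERK arms, moved apart in CD8 cells. Xbp1 had 129, 121 and 144 CPM at day 7, against 82.5, 95.4 and 76.3 CPM at day 0, and rose by 0.63 on the log2 scale (SE 0.13, adjusted p = 0.000651). Atf4 had 55.4, 71.6 and 68.4 CPM at day 7, against 151, 117 and 145 CPM at day 0, with a log2 change of -1.08 (SE 0.13, adjusted p = 3.32e-06). Neither gene's groups overlapped in CD8 cells. In CD4 cells both overlapped: Atf4 had 80.0, 60.4 and 67.9 CPM at day 7, against 106, 93.5 and 45.1 CPM at day 0, and the low day 0 value came from the library of the smaller side. Gene counts do not separate spliced from unspliced Xbp1 RNA, and the sensors and ATF4 are also controlled after transcription, which RNA counts do not show.

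**Figure D3:**
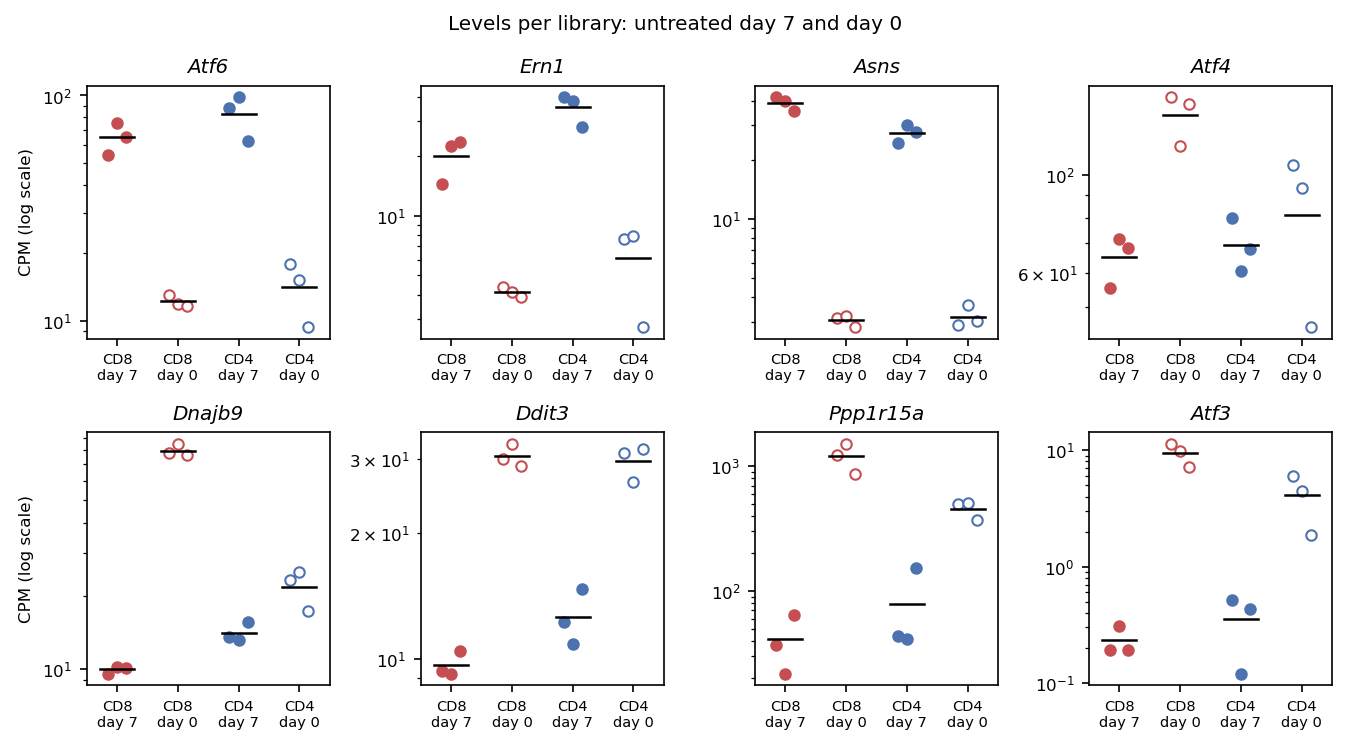
Level in CPM (log axes) of 8 members in each untreated day 7 library (filled) and day 0 library (open) of CD8 and CD4 cells; lines are means of 3 libraries. Atf6, Ern1 and Asns were higher at day 7 in both cell types; Dnajb9, Ddit3, Ppp1r15a and Atf3 were lower, and Atf4 was lower without overlap only in CD8 cells.

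Among the genes of ER degradation and the translocon, 5 of 9 rose in CD8 cells (Sel1l, Derl2, Derl3, Sec61a1 and Sec61b) and 2 of 9 in CD4 cells (Sel1l and Sec61a1), and none fell in either (at an unadjusted p under 0.05, 5 and 3 passed). Sec61a1, the channel of the translocon, had 492, 489 and 569.8 CPM at day 7, against 278, 255 and 276 CPM at day 0 in CD8 cells. In CD4 cells it had 563, 575 and 632 CPM, against 270.3, 267 and 221 CPM. The log2 changes were 0.94 (SE 0.09, adjusted p = 6.04e-07) and 1.22 (SE 0.11, adjusted p = 1.47e-06), without overlap. Sec61b, a small subunit of the same channel, had 141, 128 and 114 CPM at day 7, against 49.2, 56.2 and 50.1 CPM at day 0 in CD8 cells, a log2 change of 1.30 (SE 0.09, adjusted p = 1.40e-08). In CD4 cells it had 105, 99.4 and 83.9 CPM, against 61.3, 52.0 and 90.4 CPM, where the high day 0 library of the smaller side overlapped the day 7 group.

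Sel1l, the scaffold of the ubiquitin ligase that removes misfolded ER proteins, had 193, 226 and 220.5 CPM at day 7, against 129, 129 and 142 CPM at day 0 in CD4 cells, a log2 change of 0.68 (SE 0.11, adjusted p = 0.000257), and rose by 0.62 in CD8 cells. Its partner ligase Syvn1 and the mannosidase-like Edem1 had log2 fold changes of -0.23 and -0.03 in CD8 cells and 0.07 and 0.02 in CD4 cells, none past the test. The derlins, membrane proteins of ER degradation, differed among themselves. Derl2 rose by 0.73 in CD8 cells and Derl1 did not pass (-0.10), and Derl3, which was near the limit of detection, had 1.51, 1.55 and 1.35 CPM at day 7, against 0.861, 0.622 and 0.396 CPM at day 0 (log2 1.23, SE 0.41, adjusted p = 0.0179). The Derl3 call was lost without day 0 replicate 3 and without the libraries of the smaller side. Herpud1, an ER membrane protein of this pathway whose promoter is shown above, had 125, 95.6 and 121 CPM at day 7, against 134, 167 and 122 CPM at day 0 in CD8 cells and did not pass.

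The ATF4 and CHOP branch went in opposite directions: in each cell type 1 of its 5 tested members rose (Asns) and 3 fell (Ddit3, Ppp1r15a and Atf3). Asns (ENSMUSG00000029752), asparagine synthetase, had 41.7, 40.2 and 35.5 CPM at day 7, against 3.16, 3.20 and 2.83 CPM at day 0 in CD8 cells. The CD4 libraries had 24.4, 30.2 and 27.8 CPM, against 2.89, 3.65 and 3.05 CPM. These were 12.8-fold and 8.59-fold differences in the fit (log2 3.67, SE 0.14, adjusted p = 2.59e-11 and log2 3.10, SE 0.20, adjusted p = 8.64e-08). Of the 34 members it rose most in both cell types.

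Ppp1r15a, the GADD34 subunit that restores translation after PERK signalling, had 37.1, 21.9 and 64.4 CPM at day 7, against 1225, 1505 and 858 CPM at day 0 in CD8 cells. The CD4 values were 43.8, 41.0 and 152 CPM, against 494, 505 and 368 CPM. The log2 changes were -4.87 (SE 0.50, adjusted p = 1.30e-06) and -2.53 (SE 0.61, adjusted p = 0.00509), and the highest day 7 CD4 value was in the library of the smaller side. Atf3, a stress-induced transcription factor, had 0.193, 0.310 and 0.192 CPM at day 7, against 11.3, 9.79 and 7.15 CPM at day 0 in CD8 cells (log2 -5.31, SE 0.62, adjusted p = 2.87e-06). In CD4 cells it had 0.514, 0.120 and 0.428 CPM, against 6.05, 4.42 and 1.88 CPM (log2 -3.53, SE 0.85, adjusted p = 0.00497). The day 7 levels of Atf3 in both cell types lay near the limit of detection, so the size of its fall is uncertain. Ddit3, which encodes CHOP, the factor tied to death under lasting ER stress, had 9.37, 9.24 and 10.5 CPM, against 30.03, 32.6 and 28.9 CPM in CD8 cells (log2 -1.65, SE 0.15, adjusted p = 1.61e-07). In CD4 cells Ddit3 had 12.3, 10.9 and 14.7 CPM, against 31.0, 26.4 and 31.7 CPM (log2 -1.24, SE 0.19, adjusted p = 0.00015). Asns and Atf3 both hold an ATF4 element in the windows shown above, and at day 7 they moved in opposite directions. Of the other members with this element, Herpud1 and Trib3 passed the test in neither cell type and Chac1 was not tested. Trib3, a pseudokinase target of CHOP, had a log2 fold change of 0.64 in CD8 cells (adjusted p = 0.0526) and -0.12 in CD4 cells.

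With the libraries of the smaller side left out (day 0 replicate 3 and untreated replicate 3 in this comparison), 17 members rose and 6 fell in CD4 cells, where 26.3% of all genes rose and 24.4% fell. Called members then also included Pdia6 (log2 0.84), Sec61b (0.85), Xbp1 (0.63), Pdia3 (0.63), Derl2 (0.60), Sdf2l1 (0.51), Manf (0.37), Dnajb11 (0.33) and Canx (0.28) as higher and Atf4 (-0.51) and Pdia4 (-0.48) as lower. Pdia4, another disulfide isomerase, had 199 and 240.0 CPM in the 2 remaining day 7 libraries, against 308 and 303 CPM in the 2 remaining day 0 libraries. In CD8 cells the same step gave 16 higher and 5 lower, where 28.6% and 25.1% of all genes were called. In CD4 cells it gave calls for 50.7% of all genes in either direction, against 35.6% with all libraries. The step leaves out libraries by a score from these same counts, after the data were seen, which can narrow the spread within groups. The calls it added are therefore no further support.

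Other genes of the same pathways, not among the 35, were counted in the same comparison. Of all genes tested 30.9% rose and 29.8% fell in CD8 cells, and 17.4% rose and 18.2% fell in CD4 cells. Of 41 other genes of ER folding and the translocon, 27 rose and 7 fell in CD8 cells and 14 rose and 2 fell in CD4 cells, among them Txndc5, a disulfide isomerase, with 426 ± 38.0 CPM at day 7 and 124 ± 5.01 CPM at day 0 in CD8 cells (SD, n = 3 each; log2 1.78). Of 24 other ER degradation genes, 10 rose and 5 fell in CD8 cells and 7 rose and 1 fell in CD4 cells, led in CD8 cells by the ubiquitin-conjugating enzyme Ube2g2 (log2 2.00). Of 29 other ATF4 targets tested, 13 rose and 6 fell in CD8 cells and 10 rose and 5 fell in CD4 cells. Among these the serine synthesis enzyme Psat1 (log2 2.13 in CD8 and 1.37 in CD4 cells) and the tRNA synthetase Aars (1.46 and 0.98) rose, while Stc2, a secreted stanniocalcin, fell (-3.86 in CD8 cells). Aars and Psat1 thus moved as Asns did, and Stc2 as Atf3 did. Among the other regulators 10 of 17 rose and 3 fell in CD8 cells and 5 of 18 rose and 1 fell in CD4 cells. Prdm1, the Blimp-1 repressor of plasma and effector T cells, had 71.4 ± 16.0 CPM at day 7 and 5.26 ± 1.01 CPM at day 0 in CD8 cells, and Atf6b, the paralog of Atf6, fell there (log2 -0.85).

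The second question was where CD8 and CD4 cells differed. Before transplantation 2 of 34 members were higher in CD8 cells and 1 was lower, where 4.07% of all genes were higher and 4.52% lower. Dnajb9 was higher in CD8 cells by 1.94 on the log2 scale (SE 0.18, adjusted p = 4.48e-08, CPM values as above) and Atf4 by 0.83 (SE 0.20, adjusted p = 0.00676). Trib3 had 2.93, 3.67 and 3.70 CPM in day 0 CD8 libraries, against 10.1, 10.8 and 12.5 CPM in day 0 CD4 libraries, and was lower in all 3 CD8 libraries (log2 -1.62, SE 0.27, adjusted p = 0.000183). Ppp1r15a also lay higher in each CD8 library than in any CD4 library (log2 1.47), but did not pass (adjusted p = 0.106). Without the libraries of the smaller side 3 were higher and 2 lower, where 3.85% and 3.97% of all genes were called, with Hspa5 (log2 0.68) and Ern1 (-0.84) added.

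At day 7 without treatment 4 members were higher in CD8 than in CD4 cells (Derl3, Sdf2l1, Asns and Hsp90b1) and 2 were lower (Trib3 and Dnajc3), where 7.78% of all genes were higher and 6.67% lower. Sdf2l1 had 150.2, 124 and 125 CPM in CD8 libraries, against 59.1, 72.5 and 90.9 CPM in CD4 libraries (log2 0.89, SE 0.29, adjusted p = 0.0427). Dnajc3 had 172, 182 and 172 CPM in CD8 libraries, against 221, 272 and 233 CPM in CD4 libraries (log2 -0.42, SE 0.12, adjusted p = 0.0210). No CD8 library overlapped a CD4 library for either gene. Asns was higher by 0.56 (adjusted p = 0.0131), Hsp90b1 by 0.44 (adjusted p = 0.0151) and Derl3 by 1.34 (adjusted p = 0.0265), and Trib3 was lower (log2 -0.88, adjusted p = 0.0246). Each of the 6 calls was lost on leaving out at least 1 of several single libraries or in another setting, with the highest adjusted p between 0.0882 and 0.157. All 6 were kept with the replicate number fitted as a block. They were also kept with the number within a treatment as the block, a setting chosen after seeing the data.

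The change from day 0 to day 7 itself differed between the cell types for 4 members, 1 higher and 3 lower in CD8 minus CD4 (interaction term; 4.49% of all genes were called higher and 4.29% lower). The difference was -2.39 for Dnajb9 on the log2 scale (SE 0.25, adjusted p = 9.98e-07), -0.62 for Dnajc3 (SE 0.17, adjusted p = 0.0244), -0.87 for Atf4 (SE 0.28, adjusted p = 0.0479) and 0.77 for Sec61b (SE 0.23, adjusted p = 0.0335). Dnajb9 lay higher in CD8 cells at day 0 (78.0, 85.0 and 76.2 CPM, against 23.3, 25.1 and 17.3 CPM in CD4 cells) and lower at day 7 (9.56, 10.2 and 10.1 CPM, against 13.5, 13.1 and 15.6 CPM in CD4 cells), where the difference did not pass the test. Without the libraries of the smaller side Dnajb9 kept its call (-2.08) and Pdia6 gained one (0.60), where 2.85% and 3.14% of all genes were called higher and lower. In that setting Dnajc3, Atf4 and Sec61b had adjusted p of 0.0580, 0.0948 and 0.176, and the 3 calls were also lost on leaving out any of several single libraries.

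The third question was whether iNKT cells given at transplantation were followed by other levels of these genes at day 7. The 3 comparisons of a cell type share its untreated libraries, and no member passed the test in any of the 6. In CD8 cells 0.206% of all genes were called with iNKT17, 0.11% with iNKT2 and 0.158% with iNKT1 cells, and 12, 8 and 5 members had an unadjusted p under 0.05, as did 13.5%, 12.8% and 12.3% of all genes. DESeq2 called 5 members with iNKT17, 5 with iNKT2 and 0 with iNKT1 cells, where it called 3.94%, 3.15% and 3.2% of the genes it gave an adjusted p. In CD4 cells 0 genes of any kind were called with edgeR, 3, 4 and 3 members had an unadjusted p under 0.05, as did 7.78%, 8.01% and 6.71% of all genes, and DESeq2 called 3, 1 and 1, where it called 1.61%, 1.17% and 1.05% of all genes. Counted by libraries that did not overlap, 13 members were higher and 1 lower in CD8 cells with iNKT17 cells than without treatment (8.48% and 7.84% of all genes), 11 and 1 with iNKT2 cells (8.58% and 7.2%) and 6 and 3 with iNKT1 cells (9.5% and 8.98%). The same counts in CD4 cells were 3 and 2 with iNKT17 (8.31% and 8.33%), 1 and 2 with iNKT2 (6.91% and 7.5%) and 3 and 2 with iNKT1 cells (9.31% and 10.5%).

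The CD8 member nearest to a call was Creld2, with 95.8, 108 and 92.4 CPM with iNKT17 cells and 107, 74.3 and 101 CPM with iNKT2 cells, against 63.3, 66.8 and 67.8 CPM untreated. Every treated library lay above every untreated one, also with iNKT1 cells (80.3, 83.8 and 77.9 CPM). The log2 fold changes were 0.58 with iNKT17 (95% interval 0.32 to 0.84, adjusted p = 0.0649), 0.51 with iNKT2 (0.25 to 0.77, adjusted p = 0.105) and 0.29 with iNKT1 cells (0.03 to 0.55, adjusted p = 0.344). Pdia4 had 328, 383 and 362 CPM with iNKT17 and 382, 279 and 376 CPM with iNKT2 cells, against 257, 229 and 276 CPM untreated. These groups did not overlap either, with log2 fold changes of 0.49 (adjusted p = 0.0911) and 0.44 (adjusted p = 0.133). Xbp1 had 158, 173 and 214 CPM with iNKT17 and 212, 166 and 196 CPM with iNKT2 cells, against 129, 121 and 144 CPM untreated, with log2 fold changes of 0.47 (adjusted p = 0.121) and 0.54 (adjusted p = 0.105). Hspa5 had 988, 1218 and 1321 CPM with iNKT17 and 1349.8, 1147 and 1337 CPM with iNKT2 cells, against 963, 700.2 and 948 CPM untreated. The Hspa5 log2 fold changes were 0.43 (adjusted p = 0.209) and 0.55 (adjusted p = 0.133).

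The libraries of the smaller side of the second component were spread unevenly over these groups: 2 of 3 with iNKT17, 2 of 3 with iNKT2, 0 of 3 with iNKT1 cells and 1 of 3 untreated in CD8 cells, and 1, 2, 0 and 1 of 3 in CD4 cells. Without them the CD8 log2 fold change of Creld2 was 0.51 with iNKT17 and 0.14 with iNKT2 cells, that of Pdia4 0.38 and 0.14, that of Xbp1 0.26 and 0.32 and that of Hspa5 0.26 and 0.48, where 1 library stayed with each treatment and 2 untreated. None of these passed (0% of all genes were called in either comparison), and the part of this library difference in the treatment values was not tested. In CD4 cells without them Creld2 passed with iNKT17 cells (log2 0.54, adjusted p = 0.0386, where 1.2% of all genes were called higher), at 66.0 and 69.1 CPM with iNKT17 cells, against 43.8 and 49.0 CPM untreated.

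In CD4 cells Ddit3 had 18.7, 18.5 and 24.0 CPM with iNKT17 cells, 22.4, 17.6 and 21.8 CPM with iNKT2 and 16.1, 13.9 and 20.2 CPM with iNKT1 cells, against 12.3, 10.9 and 14.7 CPM untreated. All iNKT17 and iNKT2 libraries were above the untreated ones and the iNKT1 libraries overlapped them. The log2 fold changes were 0.70 (adjusted p = 0.261), 0.71 (adjusted p = 0.343) and 0.41 (adjusted p = 0.730), each with an SE of 0.19. Sel1l had log2 fold changes of -0.33, -0.29 and -0.34 in CD4 cells, and each treated library lay below each untreated one. Between treatments 0 members and 0 genes of any kind were called in either cell type by edgeR. At an unadjusted p under 0.05 these comparisons had 3 (iNKT17 over iNKT2), 6 (iNKT17 over iNKT1) and 6 members (iNKT2 over iNKT1) in CD8 cells (3.66%, 9.29% and 11.9% of all genes) and 0, 0 and 0 in CD4 cells (1.84%, 2.22% and 3.41%), and DESeq2 called none of them. No difference between the CD8 and CD4 treatment effects was called for any gene (1 member with iNKT17, 1 with iNKT2 and 0 with iNKT1 cells had an unadjusted p under 0.05, where 3.45%, 2.06% and 2.42% of all genes did). Of the other pathway genes, Atf6b (log2 0.58, adjusted p = 0.0306) and the ER ubiquitin ligase Rnf5 (log2 0.62, adjusted p = 0.0424) rose in CD8 cells with iNKT17 cells. These 2 calls were lost in 8 and 9 of the other settings, among them most single libraries left out (highest adjusted p 0.666).

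The fourth question was how the thymic sublineages differed. Of 31 members tested, 1 passed the test in iNKT17 over iNKT1 cells, where 0.986% of all genes were called higher and 2% in either direction, and none in iNKT2 over iNKT1 (1.29%) or iNKT17 over iNKT2 cells (0.711%). At an unadjusted p under 0.05 there were 8, 5 and 2 members, beside 9.92%, 7.57% and 7.86% of all genes, and DESeq2 called 6, 3 and 0 members, beside 13.2%, 8.36% and 10.2% of all genes. The spread between libraries of a group was wide, with a biological coefficient of variation of 1.3 over all genes, and single members dropped out of single libraries. Derl2 had 126 and 0.116 CPM and Eif2ak3 31.6 and 0.233 CPM in the iNKT17 libraries, and Manf had 57.1 and 4.52 CPM in the iNKT1 libraries. Derl3, Trib3 and Chac1 had 0 counts in all 6 libraries, Asns had 25.0 CPM in 1 iNKT2 library and 0 in the others, and these 4 were not tested.

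All 6 lectin chaperones and disulfide isomerases had higher values in each iNKT17 than in each iNKT1 library, as did 5 of the 9 chaperones and co-chaperones and 3 members of other roles (18.2% of all genes tested). Pdia4 (ENSMUSG00000025823), the member called, had 302 and 498 CPM in iNKT17, 221 and 269 CPM in iNKT2 and 129 and 97.7 CPM in iNKT1 libraries. The 3 sublineages followed each other without overlap, and the log2 fold change of iNKT17 over iNKT1 cells was 1.82 (SE 0.35, 95% interval 1.03 to 2.61, adjusted p = 0.0316). The call was lost without iNKT17 replicate 2, without either iNKT1 replicate and with the 2 groups fitted alone (highest adjusted p 0.349). Pdia6 had 381 and 317 CPM in iNKT17, 281 and 188 CPM in iNKT2 and 160.5 and 92.7 CPM in iNKT1 libraries (iNKT17 over iNKT1 log2 1.46, adjusted p = 0.115). Calr had 687 and 873, 585 and 731, and 428 and 401 CPM in the same order (log2 0.91, adjusted p = 0.113). Hsp90b1 had 1084 and 1733, 999 and 905, and 672 and 731 CPM (log2 1.01, adjusted p = 0.0885).

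**Figure D4:**
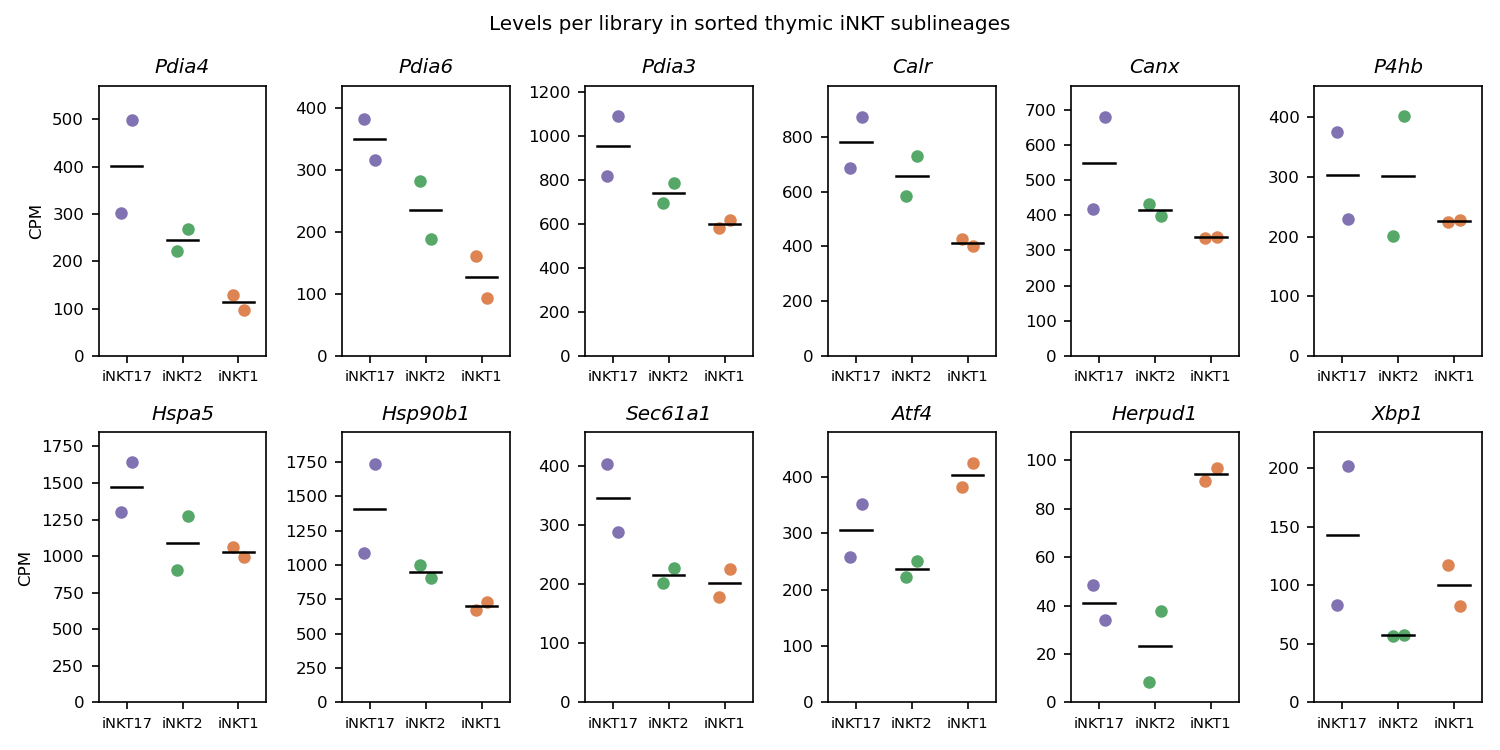
Level in CPM (vertical axes, from 0) of 12 members in the 2 RNA libraries each of iNKT17, iNKT2 and iNKT1 cells; lines are means. Pdia4, the member that passed the test in iNKT17 over iNKT1 cells, had 302 and 498 CPM in iNKT17 and 129 and 97.7 CPM in iNKT1 libraries, while Atf4 and Herpud1 were highest in iNKT1 libraries.

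Over all members 14 were higher and 5 lower in every iNKT17 than in every iNKT1 library, where 18.2% and 22.3% of all genes were so. The counts were 10 and 6 in iNKT2 over iNKT1 cells (23.4% and 20.7%) and 11 and 0 in iNKT17 over iNKT2 cells (16.2% and 22.9%). The median log2 fold change was 0.48, 0.15 and 0.40 over the members, against -0.03, 0.09 and -0.09 over all genes tested. Herpud1 was among the lower ones, with 48.3 and 33.9 CPM in iNKT17, 8.50 and 37.9 CPM in iNKT2 and 91.4 and 97.0 CPM in iNKT1 libraries, and did not pass (log2 -1.19 for iNKT17 over iNKT1, adjusted p = 0.649). Atf4 had 258 and 352, 222 and 251, and 382 and 425 CPM in the same order (log2 -0.40, adjusted p = 0.641). Of 39 other folding and translocon genes tested 1 rose in iNKT17 over iNKT1 cells, where 0.986% of all genes did: Ero1l, the oxidase that recharges disulfide isomerases, had 305 ± 139 CPM in iNKT17 and 50.9 ± 0.673 CPM in iNKT1 libraries (SD, n = 2 each; log2 2.58, adjusted p = 0.0158), a call lost without either iNKT1 replicate and with the 2 groups fitted alone (highest adjusted p 0.210).

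Open chromatin at these genes was followed in 92 ATAC regions that lay within a member gene or 5000 bases of it (coordinates mm10), of which 30 lay at a RefSeq start and 24 also belonged to another gene. In iNKT17 over iNKT1 cells 13 regions were more and 17 less open, where 23.5% and 13.6% of all 54520 regions were called. In iNKT2 over iNKT1 cells the counts were 11 and 16 (22.3% and 16.3%), and in iNKT17 over iNKT2 cells 3 and 2 (5.11% and 3.24%). At gene starts 1 was more and 8 less open in iNKT17 over iNKT1 cells and 1 and 9 in iNKT2 over iNKT1 cells, and over regions at any RefSeq start 7.99% and 17.6%, and 8.6% and 28.6%, were called. The 44 member regions away from a start that was held had 8 more and 6 less open in either comparison. Of the 22 regions at the sensors and transcription factors, in which regions at and away from starts are mixed, 9 were more and 0 less open in iNKT17 over iNKT1 cells and 7 and 1 in iNKT2 over iNKT1 cells. The 15 regions of the ATF4 and CHOP branch had 1 more and 7 less open, and 1 and 6. Regions of a gene are not independent of each other. In simulated data 34.9% of the ATAC calls in iNKT2 over iNKT1 cells were false, more than the threshold allows. There 100 regions were changed 2-fold and 100 were changed 4-fold among 54516, while 38.6% of regions were called in the real comparison. The false share of the real calls is therefore not known. The counts depend on single libraries: without iNKT1 replicate 2 they came to 14 regions in iNKT17 over iNKT1 and 15 in iNKT2 over iNKT1 cells, without iNKT2 replicate 1 to 17 in iNKT2 over iNKT1 cells, and without iNKT17 replicate 2, iNKT2 replicate 1 or iNKT2 replicate 2 to 2, 3 and 2 in iNKT17 over iNKT2 cells. With the replicate number as a block 55, 53 and 12 regions were called in iNKT17 over iNKT1, iNKT2 over iNKT1 and iNKT17 over iNKT2 cells.

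At Ern1 3 regions inside the gene were more open in both iNKT17 and iNKT2 than in iNKT1 cells, 1 of which lost its iNKT17 call without iNKT1 replicate 2 (adjusted p = 0.0717). The region chr11:106481767-106482039, 5893 bases past the start, had 3.19 and 2.49 CPM in iNKT17, 6.45 and 7.01 CPM in iNKT2 and 0.560 and 0.132 CPM in iNKT1 libraries (log2 2.90, adjusted p = 0.00270 for iNKT17 and 4.15, adjusted p = 0.000726 for iNKT2 over iNKT1). A further region, 71317 bases past the start, was least open in iNKT2 cells, with 22.0 and 23.0, 7.47 and 9.84, and 33.7 and 30.3 CPM in the same order (log2 -1.89, adjusted p = 0.000492 for iNKT2 over iNKT1). At Eif2ak3 the region chr6:70862692-70863073 had 6.18 and 7.31 CPM in iNKT17, 5.27 and 8.51 CPM in iNKT2 and 0.827 and 0.704 CPM in iNKT1 libraries (log2 3.12, adjusted p = 0.000293 and 3.14, adjusted p = 0.000468). iNKT1 libraries were the lowest in both of these regions without overlap. The RNA of Ern1 and Eif2ak3 did not pass the test between sublineages.

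At Xbp1 the region chr11:5517378-5517711, at -3097 bases from the start, had 3.95 and 3.76 CPM in iNKT17, 10.1 and 9.77 CPM in iNKT2 and 1.27 and 0.923 CPM in iNKT1 libraries. It was more open in both than in iNKT1 cells (log2 1.80, adjusted p = 0.00210 and 3.16, adjusted p = 0.000296) and less open in iNKT17 than in iNKT2 cells (log2 -1.36, adjusted p = 0.0247). That last call was lost without iNKT17 replicate 2 and without either iNKT2 replicate (highest adjusted p 0.125). Xbp1 RNA had 83.1 and 202 CPM in iNKT17, 57.2 and 57.3 CPM in iNKT2 and 118 and 82.8 CPM in iNKT1 libraries, so the sublineage with the most open region had the lowest RNA values, a difference that did not pass the test. At Atf6 3 regions were more open in iNKT17 than in iNKT1 cells, 1 of which also was in iNKT2 cells (log2 1.96, adjusted p = 0.00142 and 1.59, adjusted p = 0.00498). Of the other 2 regions, chr1:170861615-170862099 lost its call in 5 settings and chr1:170862800-170863329 without iNKT1 replicate 2.

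The starts of Asns and Atf3, whose promoter stretches with an ATF4 element are shown above, differed in opposite directions, and each printed stretch lies inside its region. The Asns start region, chr6:7692821-7693400, had 12.2 and 21.5 CPM in iNKT17, 11.7 and 16.6 CPM in iNKT2 and 5.45 and 5.19 CPM in iNKT1 libraries (log2 1.67, adjusted p = 0.00332 and 1.41, adjusted p = 0.00846). The Atf3 start region, chr1:191183134-191183739, had 25.1 and 37.4, 19.0 and 24.6, and 62.2 and 86.5 CPM in the same order (log2 -1.25, adjusted p = 0.00495 and -1.77, adjusted p = 0.00123). Atf3 RNA was 0.0322 and 10.8 CPM in iNKT17, 0 and 2.25 CPM in iNKT2 and 12.3 and 38.1 CPM in iNKT1 libraries, highest where the start was most open, and did not pass the test. In single thymic iNKT cells Atf3 had 0 UMIs in mice A and B. Asns RNA was 0 and 0 CPM in iNKT17, 0 and 25.0 CPM in iNKT2 and 0 and 0 CPM in iNKT1 libraries. Asns RNA was seen in a single library, so these values cannot show whether it followed the openness of its start, and it was not tested. The start of Pdia6 was less open in iNKT17 and iNKT2 than in iNKT1 cells (log2 -0.71, adjusted p = 0.0329 and -0.97, adjusted p = 0.00880), and that of Pdia4 in iNKT17 cells (-0.73, adjusted p = 0.0234), while a region of Pdia4 19222 bases past the start was more open in both (2.30, adjusted p = 0.00751 and 1.70, adjusted p = 0.0298). Pdia4 RNA was higher in iNKT17 than in iNKT1 cells, a call lost in 4 settings, and Pdia6 RNA did not pass the test. Over all regions at a RefSeq start the median log2 fold change of iNKT17 over iNKT1 cells was -0.30. The starts of Edem1 (-1.03, adjusted p = 0.0170 and -1.39, adjusted p = 0.00492) and Dnajc3 (-0.95, adjusted p = 0.0165 and -1.42, adjusted p = 0.00299) were also less open in iNKT17 and iNKT2 than in iNKT1 cells. The start calls in iNKT17 over iNKT1 cells of Pdia4, Pdia6, Edem1 and Dnajc3 were each lost without iNKT17 replicate 1 and without iNKT1 replicate 2, and the calls in iNKT2 over iNKT1 cells of Pdia6 and of the inner Pdia4 region without iNKT1 replicate 2 and without iNKT2 replicate 1. The Asns and Atf3 start calls were kept in every setting run.

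**Figure D5:**
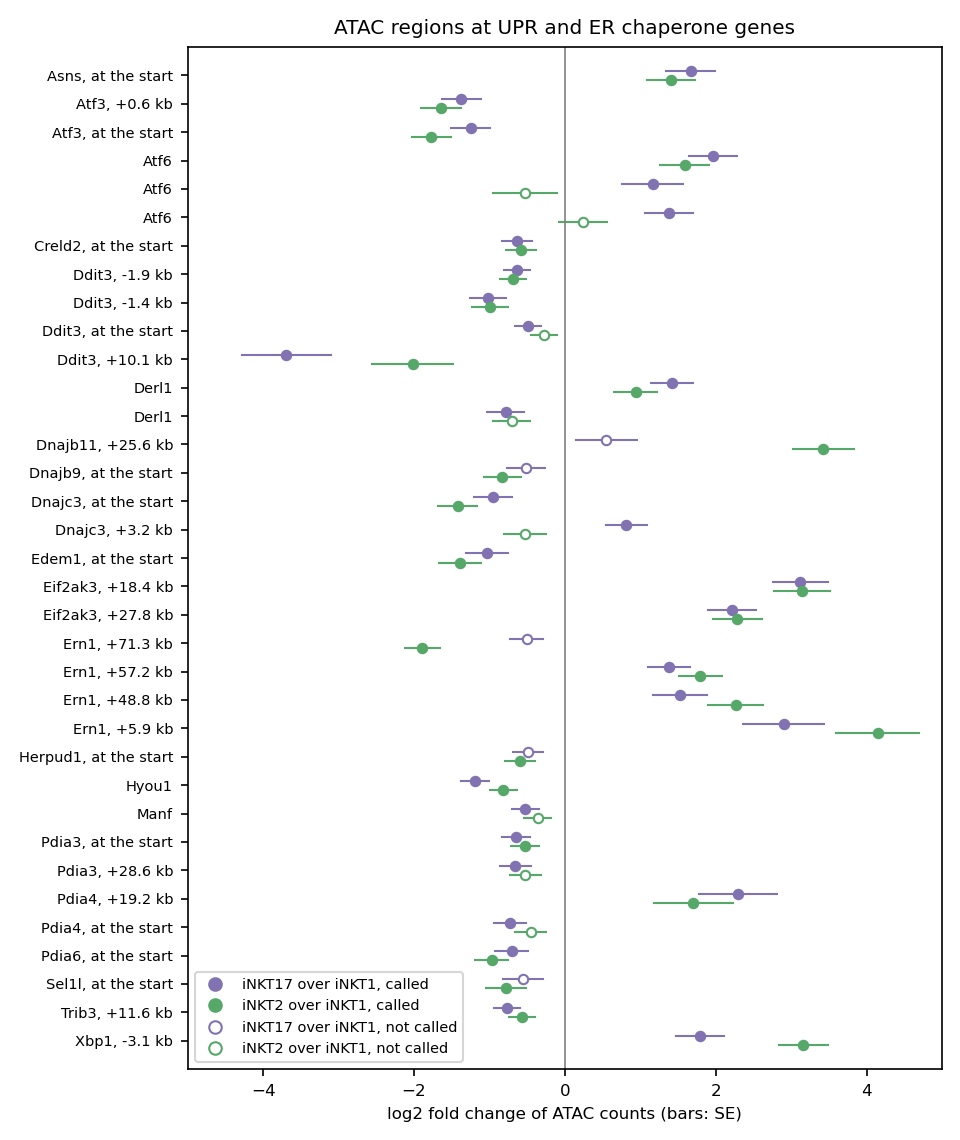
Log2 fold change of ATAC counts (horizontal axis; bars are SE) for each region of a member gene called in iNKT17 or iNKT2 over iNKT1 cells, 2 libraries per sublineage; filled points passed the test. Labels give the distance from the RefSeq start where a start was held. Regions inside Ern1, Eif2ak3 and Atf6 and upstream of Xbp1 lie mostly to the right of 0, most gene starts lie to the left, and the Asns start lies to the right.

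In single thymic iNKT cells the levels of members can be set beside each other, since each RNA molecule is counted once at its 3′ end as a unique molecular identifier (UMI). Mouse A gave 142 cells and mouse B 146 cells with at least 1000 UMIs, with 0 barcodes shared, and the 95% intervals given cover counting error only. Sec61b led with 4.13 (3.70 to 4.59) and 4.42 (3.99 to 4.87) per 10000 UMIs in mice A and B, followed by Calr (2.42 and 3.25), Pdia3 (1.83 and 2.63), Hspa5 (1.52 and 2.26), Hsp90b1 and Manf (both 1.31 in mouse A, 1.92 and 1.82 in mouse B) and Canx (1.40 and 1.27). Neighbours in this order from Calr on overlapped in their intervals in at least 1 mouse. The sensors were rare, with Eif2ak3 and Atf6 at 0.0602 and 0.0558 and Ern1 at 0.0120 and 0.0112, which are 5, 5 and 1 UMIs per mouse. Derl3, Trib3, Chac1 and Atf3 had no UMI in either mouse, and a limit of 3 UMIs for a count of 0 allows up to 0.0361 and 0.0335 per 10000 UMIs.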

How the data were processed

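RNA and ATAC values are raw counts per gene or region as the authors deposited them, and single-cell values are deposited UMI counts. The submitters' processing notes name STAR 2.5.4, DESeq2 1.22.2, kallisto, Bowtie2, MACS2, bedtools 2.27.1, HOMER 4.9.1, Cell Ranger 2.1 and builds mm10/GRCm38; which tool made which table, and whether counting used strand, is not given in the sources used here. RNA libraries were made with a stranded TruSeq kit for iNKT cells and with SMARTer v4 and Nextera XT for donor T cells, per the labels' protocols, so the RNA tables were tested separately. Genes that overlap others cannot be told apart from them where strand was not used.

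Counts were tested with edgeR 4.0.16 in R 4.3.3 (filterByExpr on the groups, trimmed mean of M-values (TMM) factors, a robust quasi-likelihood test, Benjamini-Hochberg adjustment over all genes or regions, threshold 0.05), in 1 fit each for iNKT RNA (12372 genes), ATAC (54520 regions), CD8 (14586), CD4 (15031) and all donor T cells (15601). CPM values use TMM scaling. The method was tested on simulated data with 100 features changed 2-fold and 100 changed 4-fold. The share of changed features in the real data is not known, so false shares need not carry over to the real calls. With 2 libraries a group hardly any changed iNKT gene was called, so a missing RNA call between sublineages says little. In iNKT RNA (iNKT2 over iNKT1) 0% of genes changed 2-fold and 1% of those changed 4-fold were recovered. The false share of calls there was 50%, which thus rests on very few calls. It was 34.9% in ATAC (iNKT2 over iNKT1), 8.85% in CD4 and 5.71% in CD8 day 7 over day 0. These 4 shares lay above the threshold of 0.05, while that of CD8 over CD4 cells at day 0, 1.69%, lay below it. Each share came from a single simulated data set. Of genes changed 2-fold, 35% were recovered in CD4 and 52% in CD8 day 7 over day 0. Alternatives were RLE size factors, DESeq2 1.42.0, no low-count filter, only the groups compared, all 30 donor libraries, each replicate left out, the replicate number as a block (for CD8 over CD4 cells at day 7 also the number within a treatment, chosen after seeing the data), and the libraries on the larger side of the second component. Start windows and genes are from RefSeq GRCm38.p6, and a region belonged to a member when within its gene or 5000 bases of it. Single cells were kept from 1000 UMIs, and doublets were not called.

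The members and gene lists were chosen with earlier results of these data known. All 35 members are described, and other pathway genes are given as counts with at most 4 named per list, those with the smallest p. The labels do not say that libraries came from separate animals, so p-values measure the spread between libraries. Intervals and limits for counts of 0 (3 counts) cover counting error only. By their titles, every donor T cell group holds samples of both of the 2 experiments named. The donor T cell columns do not carry the experiments, so these could not be fitted as batches. iNKT1 libraries split by CD4 were not analysed here. One list of sublineage markers is not reported here.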

Additional observations from a re-analysis of the deposited data

Results flagged for a closer look

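For 4 genes the change from day 0 to day 7 without treatment differed between CD8 and CD4 cells by the interaction test (edgeR's quasi-likelihood test, adjusted p under 0.05 over all 15601 genes). On the log2 scale, CD8 minus CD4, the difference was -2.39 for Dnajb9, -0.62 for Dnajc3, -0.87 for Atf4 and 0.77 for Sec61b. Dnajb9 had a log2 change of -3.00 in CD8 and -0.64 in CD4 cells, and this difference was called in every setting run, while the CD4 change itself lost its call in 5 settings. Dnajc3 had a log2 change of -0.36 in CD8 cells and 0.23 in CD4 cells, Atf4 -1.08 and -0.23, and Sec61b 1.30 and 0.50. The calls of these 3 genes were lost in 5, 11 and 7 of the other settings. Day 0 libraries of both cell types held RNA of B, myeloid and erythroid cells, with 570.0 to 751 CPM of erythroid markers in CD8 libraries and 3119.9 to 9335 CPM in CD4 libraries, and the part of this in the differences was not tested.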

How the results depend on the processing

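No called member, and no called pathway gene or region of those named above, changed direction under any alternative run. Called regions of the members whose regions are not named were not followed in this way. Leaving out 1 library at a time, the calls of named genes and regions held in 564 cases and were lost in 114. Counts of called members that moved by over 1.5 times are given here, followed by the ranges on leaving out each replicate. With DESeq2 6 (iNKT17) and 3 members (iNKT2) were called against iNKT1 RNA, 5 (iNKT17) and 5 (iNKT2) in treated over untreated CD8 cells, and 3 (iNKT17), 1 (iNKT2) and 1 (iNKT1) in CD4 cells. Without the low-count filter there were 4 in iNKT17 over iNKT1 RNA, 1 in CD8 cells with iNKT17 cells, 3 in CD8 over CD4 cells at day 7 and 2 in the day interaction. With only the groups compared, iNKT17 over iNKT1 RNA had 0. The setting that keeps the larger side of the second component was chosen after seeing the data: it gave 23 in CD4 day 7 over day 0, 1 in CD4 cells with iNKT17 cells, 5 in CD8 over CD4 cells at day 0 and 2 in the day interaction. At an unadjusted p under 0.05 there were 8, 5 and 2 in iNKT17 over iNKT1, iNKT2 over iNKT1 and iNKT17 over iNKT2 RNA, 9 regions in iNKT17 over iNKT2 ATAC, 12, 8 and 5 in CD8 and 3, 4 and 3 in CD4 cells with iNKT17, iNKT2 and iNKT1 cells, 6, 6 and 3 in CD8 iNKT2 over iNKT1, iNKT17 over iNKT1 and iNKT17 over iNKT2, 10 and 12 in CD8 over CD4 cells at day 0 and day 7, 12 in the day interaction, and 1 and 1 in the interactions with iNKT2 and iNKT17. Leaving out each replicate gave 0 to 5 members in iNKT17 over iNKT1 RNA, 0 to 1 in iNKT17 over iNKT2 RNA, 14 to 22, 15 to 29 and 2 to 7 regions in iNKT17 over iNKT1, iNKT2 over iNKT1 and iNKT17 over iNKT2 ATAC, 21 to 24 and 9 to 16 in CD8 and CD4 day 7 over day 0, 0 to 2 in CD8 cells with iNKT2 cells (2 without iNKT2 replicate 2), 1 to 5 in CD8 over CD4 cells at day 7 (1 without CD8 replicate 1) and 1 to 6 in the day interaction (1 without CD8 untreated replicate 1). Where a replicate left out leaves 1 library, it is assumed to vary like the other groups. The cause of these shifts was not tested.

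Within CD8, CD4 and iNKT RNA the data do not show that the replicate numbers pair the libraries, and ATAC has too few numbers (2) to settle it. Deviations of same-numbered libraries correlated from -0.212 to 0.217 in CD8, -0.298 to 0.421 in CD4 and -0.125 to 0.0606 in iNKT RNA, and from 0.438 to 0.602 in ATAC. Between CD8 and CD4 libraries of the same treatment and number at day 7 the correlations ran from -0.0272 to 0.265 (median 0.14), over 0.1 in 9 of 12 pairs. The titles of CD8 and CD4 day 7 samples match in pairs, but whether a pair shares an animal is not given in the sources used here. With the replicate number as a block 55 ATAC regions were called in iNKT17 over iNKT1, 53 in iNKT2 over iNKT1 and 12 in iNKT17 over iNKT2 cells, 13 members in CD4 day 7 over day 0, and 10 in CD8 over CD4 cells at day 7. With the number within a treatment as the block, chosen after seeing the data, 12 were called there; all 6 members called without a block were called with either. No other count of RNA members moved by over 1.5 times under a block. The CD8 day 0 columns carry no number, so comparisons with CD8 day 0 libraries had no block.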
